A study of Mus musculus with 48 samples.

Results

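In mouse kidney, 41 genes had a footprint (RPF) rhythm that peaked at least 2 h before or after the rhythm of their own RNA. In 27 of them the footprint peak came first (advanced genes) and in 14 it came later (delayed genes). They were taken from 453 genes that were rhythmic at both levels, so 9.05% of rhythmic genes were shifted, 5.96% towards an advance and 3.09% towards a delay. Of all 11863 genes tested they made up 0.346% (0.228% advanced and 0.118% delayed). The rule fitted a 24-h cosine and sine to log2(RPKM + 0.1) over the 24 libraries of each assay. It asked for a median of at least 0.5 RPKM, a fitted peak-to-trough fold of at least 1.5 and an R2 (share of the variance that the curve takes up) of at least 0.35 at both levels. Because peak times, folds and R2 chose these genes, they are given below as descriptions and were not tested. The shift is written as RPF peak minus RNA peak, negative for an advance. A value after ± is its standard error from the fit over 24 pools. Shifts printed without ±, such as those of single replicates, carry no stated error.

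The tissue was whole kidney of male C57BL/6JRj mice aged 11 to 12 weeks that lived in 12 h of light and 12 h of dark, with lights on at Zeitgeber time ZT0 and off at ZT12. No treatment or genetic change was involved, and the groups differed only in the time of collection, which was every 2 h. At each of the 12 timepoints there were 2 replicate samples, each of them made by pooling the lysates of 2 animals. Each of the 24 pools gave an RPF-seq library, from RNA fragments that ribosomes protected against RNase I, and a total RNA-seq library after rRNA removal. All spreads below are therefore between pools of animals.

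A protein's rate of synthesis follows its mRNA when translation efficiency (TE, footprints per unit of RNA) is constant through the day. Footprints can peak at another time than the RNA when TE itself changes with time of day. The molecular clock of mammals works through transcription, with CLOCK and BMAL1 binding to E-box elements of their target genes, and nutrient and hormone signals add a further daily layer that acts partly on translation. In kidney, clock-controlled genes include transporters, transcription factors and enzymes of metabolism.

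The 48 libraries held the equivalent of 9860000 to 33580000 reads in RNA-seq and 15560000 to 35010000 reads in RPF-seq, as read from the steps between low RPKM values. The RPF-seq library of ZT4 replicate 2 stood apart with 125 genes at 0, against 0 to 14 in the other RPF-seq libraries. Leaving out that pool in both assays gave 43 shifted genes, of which 32 were among the 41. Markers of fat moved strongly through the day. The 4 of 6 fat markers present summed to between 2.36 and 47.9 RPKM in RNA, from 8.20 to 47.9 RPKM in the light phase and from 2.36 to 20.1 RPKM in the dark phase. The highest pool was ZT4 replicate 1, and their fitted curve peaked at ZT4.94. Without that pool there were 44 shifted genes, 35 of them among the 41. All 7 proximal tubule markers were present, 0 of 5 adrenal markers were listed, and no gene of the 10 cell type lists was among the 41. In whole kidney, fewer cells of a type and less RNA per cell cannot be told apart, and the part of these markers in the shifts was not tested.

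The shifted genes were expressed at a lower level than the other rhythmic genes. Their median RNA level over the day was 6.05 RPKM (middle value of 41 genes), compared with 10.7 RPKM for the 412 rhythmic genes whose peaks lay within 2 h of each other (aligned genes). Their fitted folds were moderate, with a median of 1.77 for RNA and 1.71 for RPF, against 1.84 and 1.82 for the aligned genes. The RPF fold was above the RNA fold in 22 of 41, so neither level regularly had the stronger rhythm. The shift was also known less precisely, with a median standard error of 0.947 h against 0.574 h. In 13 of the 41 genes the median library of at least 1 assay held fewer than 50 reads, 10 of them advanced and 3 delayed.

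Most shifts were close to the limit. There were 16 advanced and 9 delayed genes between 2 and 3 h, 7 and 3 between 3 and 4 h, and 4 and 2 at 4 h or more. In 40 of 41 genes the shift was larger than 2 standard errors, and in 4 (Tpt1, Tchp, Dzip1 and Defb1) it lay more than 2 standard errors beyond the 2 h limit itself. The standard error was 1 h or more in 15 of the 41. In the remaining genes a shift above 2 standard errors was fixed by the 2 h limit, so nothing is read from the first count. Ankrd13b was the gene within 2 standard errors of 0. The genes just inside were Ccdc85b (-2.01 h) and Aplnr (-2.03 h) on the advanced side and Mknk2 (2.01 h) and Pfkfb3 (2.04 h) on the delayed side. Just outside lay Cdk20 (-1.92 h), Eif4ebp2 (-1.92 h), Tob2 (1.93 h) and Fbn1 (1.70 h).

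**Figure D1:**
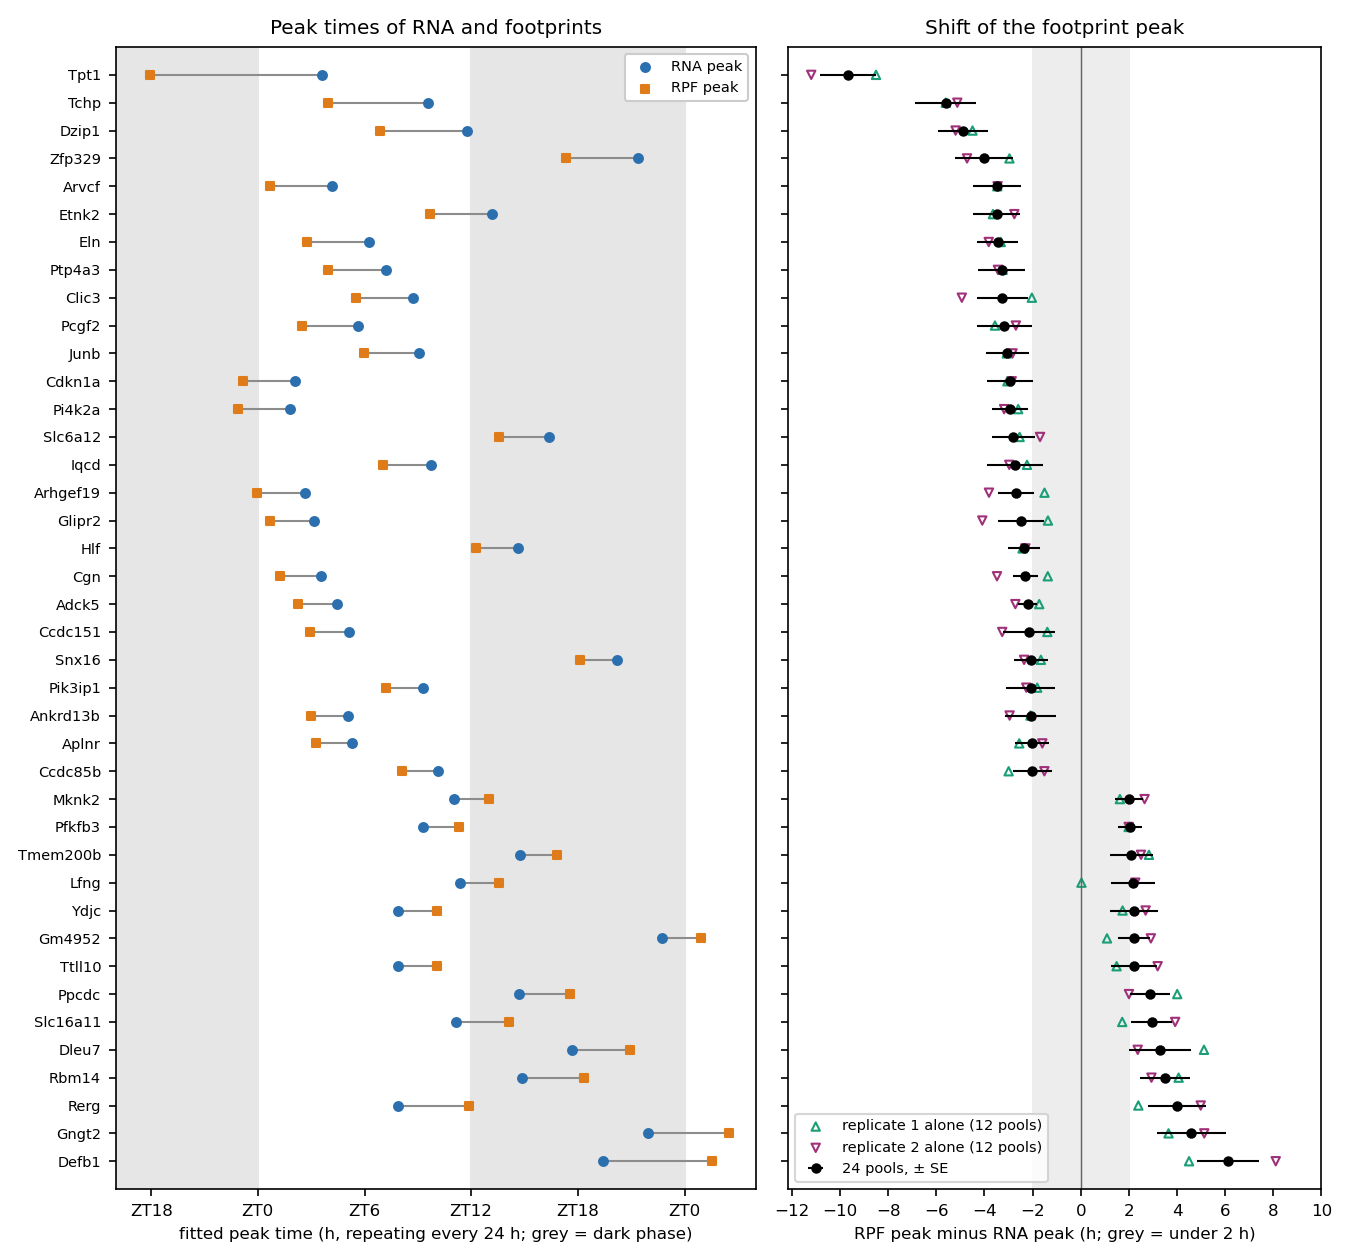
Left, fitted peak time of RNA (blue circles) and RPF (orange squares) for 40 of the 41 shifted genes on a Zeitgeber axis in h, with the dark phase in grey. Right, RPF peak minus RNA peak in h over 24 pools with its standard error (black) and in each replicate series alone (triangles). Tpt1 stands at -9.67 h and Defb1 at 6.14 h, and the remaining genes lie between -5.61 and 4.60 h.

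The RNA of 22 of 27 advanced genes peaked in the light phase, 6 of them from ZT0 to ZT4, 9 from ZT4 to ZT8 and 7 from ZT8 to ZT12. Of the delayed genes, 7 of 14 had an RNA peak in the light phase and none before ZT4. Among the aligned genes the share in the light phase was 229 of 412 (55.6%), compared with 81.5% of the advanced and 50% of the delayed genes. TE peaked between ZT16 and ZT4 in 21 of 27 advanced and 9 of 14 delayed genes, compared with 212 of 412 aligned genes (51.5%) and 47.4% of all genes tested. The window was chosen after the values were seen, and the TE peak follows from the RNA peak and the shift that the rule used, so nothing is read from these counts.

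Tpt1, which encodes the translationally controlled tumour protein and whose mRNA belongs to the class with a terminal oligopyrimidine tract, had the largest shift of all (ENSMUSG00000060126, chr14:75845093-75848525, plus strand, GRCm38). It was also the most abundant shifted gene, with RNA levels of 745 RPKM in the lowest pool, 1086 in the median and 1856 in the highest. RNA was high at the start of the light phase, with 1658 and 1856 RPKM in the 2 pools at ZT0, and low at ZT14 with 745 and 849 RPKM. Mean footprints were lowest at ZT8, with 356 and 488 RPKM, and highest at ZT16, with 907 and 759 RPKM. They were not a mirror image of the RNA. At ZT0, where RNA was highest, footprints stood at 750 and 737 RPKM. At ZT10 they were 654 and 892 RPKM, above both neighbouring timepoints in the mean. ZT14 had the lowest mean RNA level of the day, and both of its pools were above the RPF median of 679 RPKM, at 772 and 781 RPKM. TE was 0.265 and 0.340 at ZT8 and 1.04 and 0.920 at ZT14, and the pools of the 2 timepoints did not overlap. The fitted peaks were ZT3.59 for RNA and ZT17.9 for RPF, a shift of -9.67 ± 1.17 h (SE, 24 pools). On a 24-h circle a shift of this size is close to antiphase, and the word advance for it is a convention. The replicate series gave -8.51 h and -11.2 h. Tpt1 has several processed pseudogenes, and reads shared with them could not be separated in the deposited values.

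Defb1, an antimicrobial beta-defensin made by epithelia of the kidney, had the largest delay and the second highest level (chr8:21776599-21795185, plus strand). Its RNA was 302 and 387 RPKM at ZT22 against 196 and 149 RPKM at ZT8. Its footprints were 288 and 362 RPKM at ZT4 and 168 and 162 RPKM at ZT12. The mean RNA level was thus highest at the end of the night and the mean footprint level in the early light phase, but single pools departed from this pattern. The 2 RNA pools of ZT10, at 137 and 321 RPKM, lay further apart than the highest and lowest timepoint means. Fitted peaks at ZT19.4 and ZT1.54 gave a shift of 6.14 ± 1.29 h, with 4.50 and 8.11 h in the replicate series. Defb1 TE went from 0.627 and 0.580 at ZT16 to 1.44 and 2.38 at ZT4.

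Transcription and chromatin regulators among the shifted genes included Hlf, Junb, Pcgf2 and Zfp329, which were advanced, and Rbm14, which was delayed. How common such regulators are among all rhythmic genes was not counted. This grouping by known function, like those that follow, was made after the values were seen. Hlf, a PAR bZIP factor that the clock drives and that acts on D-box elements, was among the most precisely measured of these regulators (chr11:90336536-90390895, minus strand). By timepoint means Hlf RNA was lowest at ZT4, with 24.8 and 20.3 RPKM, and highest at ZT14, with 45.1 and 48.6 RPKM. Hlf footprints had already reached 46.0 and 48.1 RPKM at ZT8 and stood at 52.2 and 48.0 RPKM at ZT12, and by ZT14 they were down to 41.0 and 41.2 RPKM. The pools of ZT8 and ZT12 overlapped in footprints, and those of ZT14 lay below both. The shift was -2.36 ± 0.646 h, from ZT14.7 to ZT12.3, and it was -2.42 h and -2.30 h in the replicate series. Hlf TE was 1.57 and 1.42 at ZT6 and 0.910 and 0.847 at ZT14.

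Of 19 core clock and clock output genes, 18 were rhythmic at both levels and 1 of them, Hlf, was shifted. Of all 453 rhythmic genes 9.05% were shifted, so nothing is read from this count. The 18 shifts ran from -2.36 to 1.10 h with a median of 0.0931 h, and 7 of the 18 were negative. Junb, an immediate early subunit of AP-1, was also advanced. Its RNA was 14.1 and 18.2 RPKM at ZT8 and 6.11 and 6.66 RPKM at ZT0, and its footprints were 11.0 and 22.2 RPKM at ZT6 and 5.4 and 6.15 RPKM at ZT18. The 2 footprint pools of ZT6 lay far apart, whereas those of ZT18 were close. The shift was -3.06 ± 0.893 h, with -3.07 h and -2.83 h in the replicates. The other rhythmic immediate early genes, Ier3 and Ccn2, were not shifted, and nothing is read from 3 genes.

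Pcgf2, a Polycomb protein, had RNA of 11.4 and 9.12 RPKM at ZT6 and 4.26 and 3.23 RPKM at ZT22, whereas its mean footprint level was highest at ZT22, with 6.41 and 6.79 RPKM. Its TE consequently stood at 1.49 and 2.07 at ZT22 and at 0.472 and 0.620 at ZT6, and its shift was -3.18 ± 1.15 h. Zfp329, a zinc finger protein, was shifted by -4.04 ± 1.21 h. Rbm14, an RNA-binding coactivator, was delayed by 3.52 ± 1.04 h, with 4.07 and 2.94 h in the replicates.

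Cell cycle, kinase and signalling genes were found in both directions. Cdkn1a, the p21 inhibitor of cyclin-dependent kinases and a target of steroid and p53 signalling, had RNA of 6.60 and 6.43 RPKM at ZT2 and 1.37 and 0.733 RPKM at ZT12. Footprints were 22.1 and 20.7 RPKM at ZT2 and 6.39 and 6.33 RPKM at ZT12. A second maximum stood at ZT16, with RNA of 4.03 and 5.23 RPKM and footprints of 20.4 and 21.4 RPKM in the 2 pools. Footprints were thus as high at ZT16 as at ZT2 and RNA was lower, and a curve with a single maximum does not describe this profile fully. The 24-h curves put the peaks at ZT2.12 and ZT23.2, a shift of -2.95 ± 0.968 h, with -3.05 h and -2.87 h in the replicates. The median library held 22 reads of Cdkn1a in RNA-seq and 123 in RPF-seq. Of 13 steroid targets listed, 6 were rhythmic at both levels and 1 of them, Cdkn1a, was shifted. With 9.05% of all rhythmic genes shifted, nothing is read from so few genes.

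Pi4k2a, a lipid kinase that makes phosphatidylinositol 4-phosphate, was advanced with both levels well covered by reads. RNA peaked at ZT2, with 30.5 and 33.4 RPKM, and was lowest at ZT12, with 14.4 and 14.6 RPKM. The mean footprint level was highest at ZT20, with 38.1 and 42.8 RPKM, when RNA was 19.2 and 20.8 RPKM. All 4 RNA pools of ZT20 and ZT12 lay below those of ZT2, while the footprints of ZT20 exceeded those of ZT2 (37.2 and 34.9 RPKM). The shift was -2.93 ± 0.740 h, and the median library held 466 RNA-seq and 946 RPF-seq reads. Adck5, a kinase-like mitochondrial protein, had the smallest standard error. Its RNA was highest at ZT6, with 18.7 and 17.3 RPKM, and its footprints at ZT22, with 19.0 and 20.7 RPKM, although the RPF values at ZT6 were close to these (20.0 and 17.3 RPKM). The shift was -2.21 ± 0.401 h, with -1.72 h in replicate 1 and -2.72 h in replicate 2.

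Further advanced signalling genes were Arhgef19, a guanine nucleotide exchange factor (-2.71 ± 0.748 h), Ptp4a3, a protein tyrosine phosphatase (-3.29 ± 0.972 h), Pik3ip1, an inhibitor of PI3 kinase (-2.08 ± 1.01 h), and Aplnr, the apelin receptor (-2.03 ± 0.698 h). Ptp4a3 rested on 15 footprint reads in the median library. Mknk2, a kinase that phosphorylates the cap-binding factor eIF4E, was delayed. Mknk2 RNA was 70.2 and 66.5 RPKM at ZT14 and 33.9 and 31.6 RPKM at ZT20. Its footprints were 43.4 and 36.6 RPKM at ZT16 and 27.9 and 21.1 RPKM at ZT4. Footprints at ZT12 (40.0 and 39.6 RPKM) and ZT14 (44.3 and 33.7 RPKM) were close to those of ZT16, so their maximum was flat. At ZT20 TE was 0.765 and 0.951 against 0.518 and 0.523 at ZT10. The shift was 2.01 ± 0.590 h, with 1.63 h in replicate 1 and 2.65 h in replicate 2. Rerg, a Ras-like GTPase (4.00 ± 1.21 h), Gngt2, a G protein gamma subunit (4.60 ± 1.44 h), and Lfng, a glycosyltransferase that modifies Notch (2.17 ± 0.918 h), were the other delayed signalling genes. Lfng was the 1 gene without a shift of at least 1 h in both replicates, with 0.0309 h in replicate 1 and 2.27 h in replicate 2.

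Metabolic enzymes and transporters were found in both directions. Pfkfb3, which makes the allosteric activator of glycolysis fructose 2,6-bisphosphate, had RNA of 12.9 and 9.96 RPKM at ZT10 and 5.59 and 5.47 RPKM at ZT20. Footprints were 14.3 and 13.8 RPKM at ZT10, and at ZT14 they were still 11.0 and 13.8 RPKM when RNA was down to 6.92 and 8.17 RPKM. Both levels had their highest mean at the same timepoint, and at ZT12 both were lower, with 8.14 and 9.39 RPKM in RNA and 10.5 and 11.7 RPKM in footprints. The shift of 2.04 ± 0.513 h was almost the same in the replicates, at 1.99 and 1.99 h. Ppcdc, an enzyme of coenzyme A synthesis, had RNA of 16.9 and 19.8 RPKM at ZT14 and footprints of 21.4 and 23.3 RPKM at ZT16. Its shift was 2.87 ± 0.827 h. Slc16a11, a monocarboxylate transporter family member, was delayed by 2.95 ± 0.867 h and Gm4952 by 2.21 ± 0.665 h. On the advanced side were Etnk2, an ethanolamine kinase (-3.48 ± 0.975 h), Slc6a12, a transporter of the osmolyte betaine (-2.81 ± 0.90 h), and Clic3, a chloride intracellular channel protein (-3.25 ± 1.08 h). Slc6a12 was the least expressed shifted gene in RNA, with a median of 0.861 RPKM and 20 reads.

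The next genes belong to cell junctions, matrix and cilia. Cgn, the tight junction protein cingulin, had RNA of 5.81 and 5.91 RPKM at ZT2 and 2.42 and 2.65 RPKM at ZT18. Cgn footprints also had their highest mean at ZT2, with 6.77 and 5.76 RPKM, close to 5.70 and 6.62 RPKM at ZT0. They were 3.35 and 3.13 RPKM at ZT12, and at ZT22, when RNA was 3.69 and 3.89 RPKM, they had come back to 5.04 and 5.86 RPKM. The shift was -2.30 ± 0.508 h, with -1.37 h and -3.48 h in the replicates. Arvcf, a catenin of adherens junctions, was shifted by -3.49 ± 0.997 h and Eln, elastin of the extracellular matrix, by -3.46 ± 0.843 h. Of the genes for cilia and centrosomes, Tchp (-5.61 ± 1.26 h), Dzip1 (-4.90 ± 1.03 h), Iqcd (-2.72 ± 1.16 h) and Ccdc151 (-2.17 ± 1.08 h) were advanced and Ttll10, a tubulin-modifying enzyme, was delayed (2.22 ± 0.947 h). Among the advanced genes Tchp and Dzip1 followed Tpt1 in size, but Dzip1 had a median of only 0.652 RPKM in RPF. The remaining members were Glipr2 (-2.48 ± 0.947 h), Snx16 (-2.08 ± 0.707 h), Ankrd13b (-2.07 ± 1.06 h) and Ccdc85b (-2.01 ± 0.824 h) among the advanced genes, and Tmem200b (2.10 ± 0.885 h), Ydjc (2.2 ± 0.999 h) and Dleu7 (3.29 ± 1.31 h) among the delayed genes. In 9 of the 41 genes exons of another annotated gene overlap the coding sequence, and whether reads were counted by strand is not given in the sources used here, so their values are uncertain. They are Tchp, Dzip1, Eln, Iqcd, Snx16, Pik3ip1, Ydjc, Dleu7 and Rbm14.

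**Figure D2:**
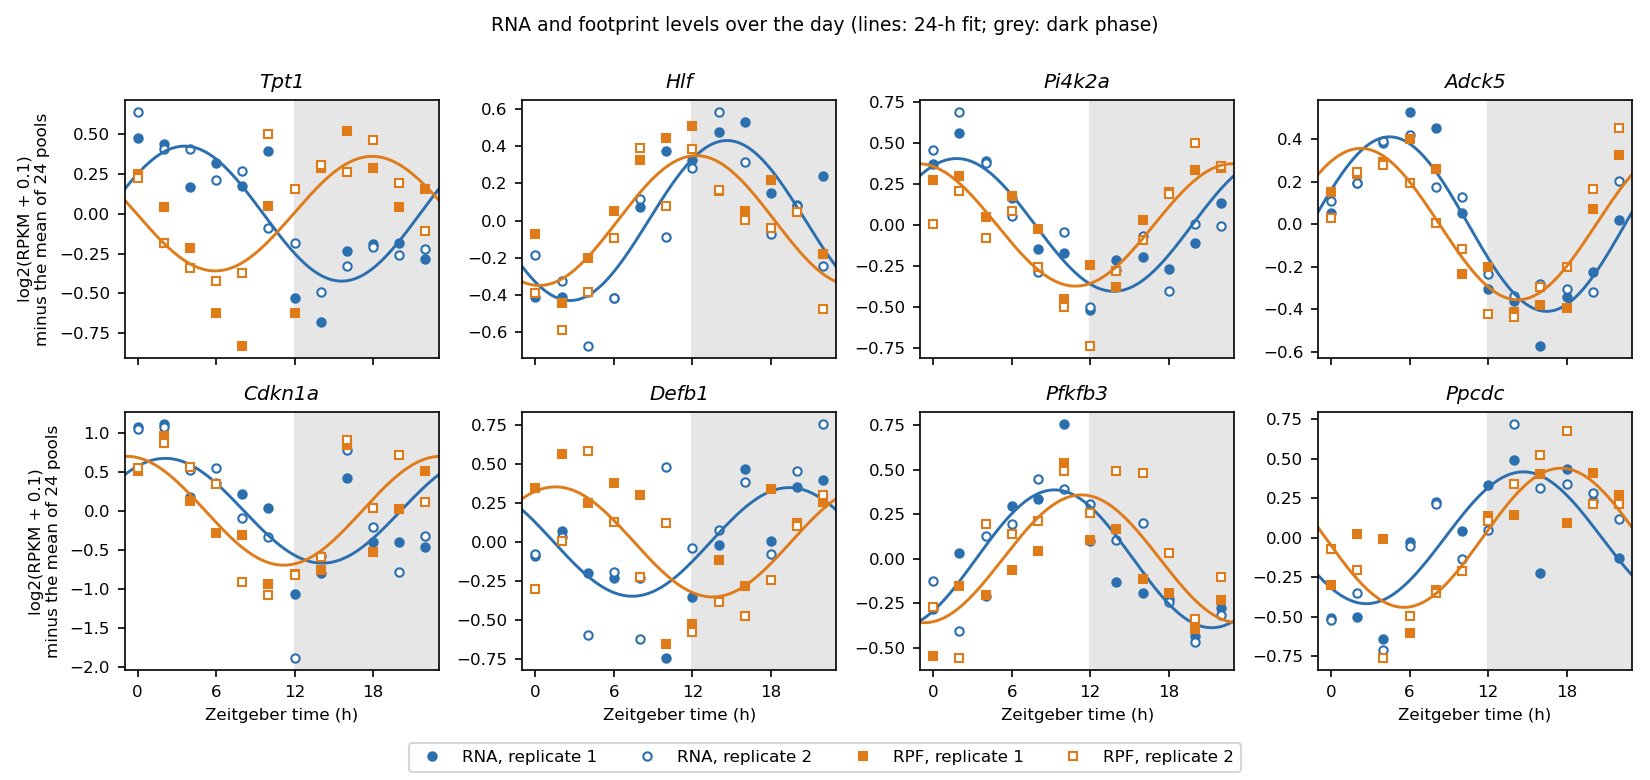
RNA (blue) and RPF (orange) of 8 shifted genes at the 12 timepoints, as log2(RPKM + 0.1) minus the mean of 24 pools, with filled symbols for replicate 1, open symbols for replicate 2 and the fitted 24-h curves as lines. The grey area is the dark phase. In Tpt1 the RPF curve runs against the RNA curve, in Hlf, Pi4k2a, Adck5 and Cdkn1a it runs ahead, and in Defb1, Pfkfb3 and Ppcdc it follows.

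Members of other gene lists were rhythmic at both levels and 0 of them shifted, in lists so short that the 9.05% of shifted genes among all rhythmic genes would give fewer than 1 per list. Of 21 heat shock genes 7 were rhythmic at both levels, with shifts from -1.14 to 0.834 h. Of 13 chaperones of the endoplasmic reticulum 9 were, with shifts from -0.685 to 0.653 h, and of 17 sterol genes 6 were, with shifts from -0.528 to 1.19 h. Tob2, an adaptor of mRNA deadenylation, was the only rhythmic gene of the 23 tested in its list and remained just under the limit at 1.93 ± 0.556 h. Several genes that the study picked as examples of footprint timing were also looked up. Hlf, Etnk2 and Cgn met the rule. Nampt (-1.80 ± 0.429 h), Tardbp (-1.29 ± 0.455 h) and Dnajb4 (-1.14 ± 0.496 h) were advanced by less than 2 h, and Slc5a6 stood at 0.364 ± 0.504 h, which does not differ from 0 beyond its error. These examples were chosen on the same libraries and are not independent evidence.

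The rule was then repeated in each replicate series of 12 pools. All 41 genes kept their direction in both series, and 40 were shifted by at least 1 h in both, which partly follows from the choice, since the 24 pools that chose them contain both series. At least 2 h in both was reached by 23 genes, 16 advanced and 7 delayed. The whole rule with rhythm criteria was met by 19 of the 41 in replicate 1 alone (17 advanced and 2 delayed) and by 25 in replicate 2 alone (15 advanced and 10 delayed). Whether the directions differed in this was not tested. The 2 shifts of a gene differed by a median of 0.994 h. The TE rhythm was also tested for a difference between the replicate series (limma, interaction of replicate and the 24-h terms). This test called 0 of 41 genes, against 0.00843% of all genes. In it 3 of the 41 had an unadjusted p under 0.05, against 375 of 11863 genes tested.

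**Figure D3:**
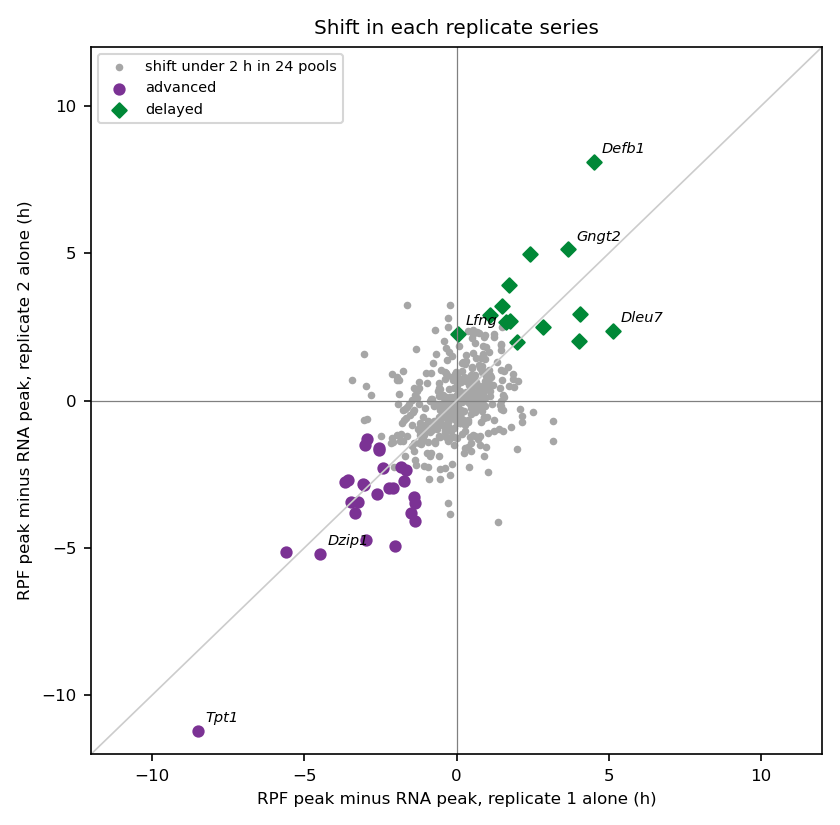
RPF peak minus RNA peak in h from replicate 1 alone (x axis) and replicate 2 alone (y axis), with advanced genes as purple circles, delayed genes as green diamonds and the aligned genes in grey. Every coloured point has the same sign on both axes, with Lfng on the edge at 0.0309 h in replicate 1.

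Genes were then chosen in 1 replicate series and read in the other, which the choice had not used. In replicate 1 alone 661 genes were rhythmic at both levels (5.57% of genes tested), and 112 of them met the whole rule (16.9%), 73 advanced (11.0%) and 39 delayed (5.9%). Of the 105 that could be read in replicate 2, 73 (69.5%) had a shift of the same sign. The median shift of the advanced genes went from -3.07 h where chosen to -1.60 h where read, and that of the delayed genes from 3.10 to 0.992 h. At least 2 h in the same direction was seen again for 45 of 105 (42.9%). Among 545 genes that were aligned in replicate 1, 126 (23.1%) were 2 h or more apart in either direction in replicate 2. In replicate 2 alone 513 genes were rhythmic (4.32%), and again 112 met the rule (21.8%), 73 advanced (14.2%) and 39 delayed (7.6%), with a different membership. Of the 109 read in replicate 1, 83 (76.15%) kept the sign and 47 (43.1%) were again at 2 h or more, compared with 51 of 399 aligned genes (12.8%). Their median shift went from -3.03 to -1.58 h for advanced and from 2.54 to 1.31 h for delayed genes. In each of these lists the median shift was thus smaller in the series that had not chosen the genes.

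Rhythm at both levels was itself often lost on reading. Of the 105 genes chosen on replicate 1 and read in replicate 2, 28 were rhythmic at both levels there, against 284 of 545 aligned genes. Of these 28 genes, 22 kept the sign. Among these, 18 of 19 advanced genes kept it but 4 of 9 delayed genes did, and the median shift of those 9 was -0.301 h, opposite to the delay for which they were chosen. Chosen on replicate 2, 40 of 109 were rhythmic in replicate 1, against 272 of 399 aligned genes. Of these 40 genes, 34 kept the sign, 24 of 26 advanced and 10 of 14 delayed genes. The whole rule was met in both series in the same direction by 12 genes. Advanced in both were Ankrd13b, Cdca3, Cdkn1a, Eln, Hlf, Iqcd, Junb, Pi4k2a, Ptp4a3 and Tpt1, and delayed in both were Defb1 and Ppcdc. All but Cdca3 were among the 41. The 12 were 11.4% of the genes read in replicate 2 and 11.0% of those read in replicate 1. Of aligned genes, 27 of 545 (4.95%) and 15 of 399 (3.76%) met the whole rule when read, in either direction. The TE rhythm of the genes chosen on replicate 1, tested in replicate 2 alone with limma, was called in 0 of 105, with 20 (19.0%) at an unadjusted p under 0.05 against 15.6% of all genes tested there. In the other direction it was 0 of 109, with 39 (35.8%) at an unadjusted p under 0.05 against 21.5% of all genes. Of all genes, 0.0% and 0.0169% were called in replicate 2 and in replicate 1.

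Over 24 pools the TE rhythm was called in 27 of the 41 shifted genes (limma, moderated F test of the 24-h terms on log2 TE, Benjamini-Hochberg FDR under 0.05), against 17.1% of all genes tested. The rule used the same contrast, so nothing is read from this count. Fitted TE folds ran from 1.28 in Pik3ip1 to 2.81 in Tpt1, with a median of 1.54. In the aligned genes the median was 1.17 and 45 of 412 were called.

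A 12-h component beside the 24-h rhythm was tested next, although the rule used the same libraries and touches this component through R2. It was called for RNA in 0 of 41 shifted genes (limma), against 0.598% of all genes and 23 of 412 aligned genes. An unadjusted p under 0.05 was reached for RNA by 9 of the 41, against 2020 of 11863 genes tested and 153 of 412 aligned genes. For RPF the component was called in 1 of 41, against 0.7% of all genes and 27 of 412 aligned genes. An unadjusted p under 0.05 was reached for RPF by 10 of the 41, against 1871 of 11863 genes tested and 141 of 412 aligned genes. These were 10 of 27 advanced and 0 of 14 delayed genes, and a difference between the directions was not tested. For TE the component was called in 0 of 41, against 0.0169% of all genes. Here 6 of the 41 had an unadjusted p under 0.05, against 1149 of 11863 genes tested. The 23 aligned genes with a 12-h RNA component included the chaperones Hspa8, Hspa5, Dnaja1 and Hyou1.

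Although the 12-h terms were hardly called, adding them to the curve moved the fitted peaks of many members. With both periods in the curve, 9 of 27 advanced and 8 of 14 delayed genes still had a shift of at least 2 h in their direction. Hlf (-3.08 h), Pi4k2a (-5.90 h), Pcgf2 (-6.25 h) and Ptp4a3 (-5.83 h) were among those that stayed beyond the limit, as were Defb1 (7.89 h), Gngt2 (8.89 h), Rerg (4.65 h) and Pfkfb3 (2.14 h). Arvcf (-0.41 h), Cgn (-0.51 h), Eln (-0.71 h), Cdkn1a (-0.97 h), Adck5 (-0.89 h) and Mknk2 (0.67 h) came close to alignment. Arhgef19, Ydjc, Ppcdc and Dleu7 crossed 0 and Tpt1 went from one side of antiphase to the other. For these 5 genes the direction of the shift depended on the curve fitted. No standard error was computed for shifts from the curve with 12-h terms.

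**Figure D4:**
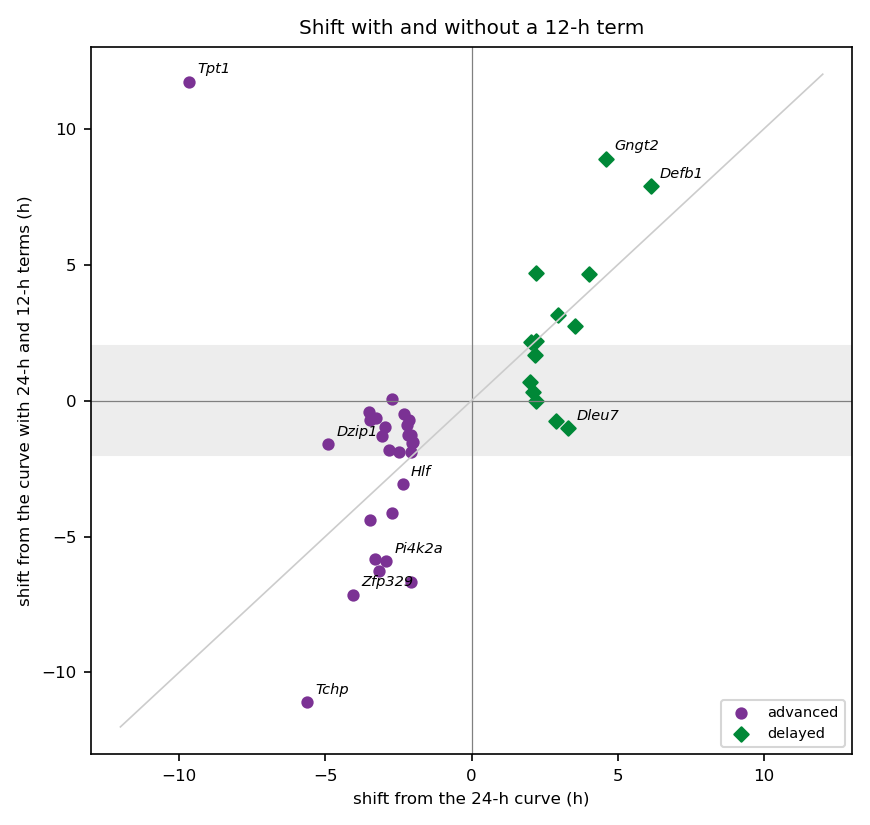
Shift in h from the 24-h curve (x axis) and from the curve with 24-h and 12-h terms (y axis) for the 27 advanced (purple circles) and 14 delayed genes (green diamonds). Points in the grey band are within 2 h of alignment with the second curve. Tpt1, at 11.7 h on the y axis, lies near antiphase with both curves.

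The 12 timepoint means of the 2 assays were also aligned without any curve, on the same pools that had chosen the genes, so that a lag in the same direction was largely fixed by the choice. The lag with the best circular correlation was 2 h or more in the direction of the fit in 22 of 27 advanced and 9 of 14 delayed genes, and 0 h in 5 of each. Tpt1 had its best lag at -10 h, Tchp at -6 h, Defb1 at 6 h and Gngt2, Rerg, Ppcdc and Ydjc at 4 h. Junb, Cdkn1a, Mknk2 and Pfkfb3 were among the genes at 0 h. Timepoints are 2 h apart, so lags come in steps of that size.

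Promoter sequences were looked at because E-boxes are the element through which the core clock acts. A promoter window of 250 bases before to 50 after the start (RefSeq, GRCm38.p6) was at hand for 30 of the 41 genes. CACGTG, which reads the same on both strands, was in the window of 6 of these (20.0%), 4 advanced and 2 delayed, against 49 of 341 rhythmic genes (14.4%) and 11.9% of 9337 tested genes with a window. The stretches are printed 5′ to 3′ on the strand of the gene, with the element in capitals.
Cgn, chr3:94786650-94786679, minus strand: gccccaccagtcCACGTGaccccaccgccc
Ccdc151, chr9:22002754-22002783, minus strand: acacgcaggcgtCACGTGaccgctacgctc
Dzip1, chr14:118925535-118925564, minus strand: tcagcgtagcatCACGTGtctgcagcagct
Pcgf2, chr11:97699768-97699797, minus strand: aaggaatgaggtCACGTGggtgagtagtgg
Lfng, chr5:140607217-140607246, plus strand: ttgtccgtatccCACGTGggaaggagagat
Pfkfb3, chr2:11502126-11502155, minus strand: cacccttctctcCACGTGaaagggggctgg

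The RNA of these 6 genes had fitted peaks between ZT3.56 (Cgn) and ZT11.8 (Dzip1), all in the light phase. RNA also peaked in the light phase in 29 of all 41 shifted genes (70.7%). Footprint peaks of the 6 genes lay from -4.90 h to 2.17 h of their RNA peaks. An E-box was thus present in genes of either direction. The Hlf window held a cAMP response element, TGACGTCA, just before the start, which 3.38% of tested genes have.
Hlf, chr11:90390908-90390937, minus strand: ggtgcgggcccTGACGTCActcttgtcagg

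The D-box (TTATGTAA and TTACGTAA), the ROR and REV-ERB element (TAGGTCA) and a heat shock element, each searched on both strands, were in none of the 30 windows. They occurred in 0.739%, 0.182%, 2.44% and 0.557% of the tested genes. A palindromic glucocorticoid response element (0.375% of tested genes) was found in Clic3 alone. A match is a stretch of letters and not a measured binding site.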

How the data were processed

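Each of the 48 libraries came as RPKM per gene, which the authors made from reads on the coding sequence with upper quantile normalisation and deposited with 1 value per gene and library. Per the submitters' processing notes, CASAVA 1.82, cutadapt, Bowtie2 2.2.1, TopHat2 2.0.11, Cufflinks 2.2.1 and edgeR were used with mouse build GRCm38.p2 (mm10). Raw counts were not used here. RPKM values are relative within a library, so a change common to all genes is not visible.

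Values were taken as log2(RPKM + 0.1), and TE as the difference of the 2 assays in the same pool. Of 12423 genes in both assays, 11863 had a median of at least 0.5 RPKM in each and were tested. Curves were fitted by least squares (Python 3.11.15, numpy 2.4.6), with delta-method standard errors for peak times. Moderated F tests of TE rhythm, 12-h terms and replicate differences came from limma 3.58.1 under R 4.3.3 (Benjamini-Hochberg over all tested genes, FDR under 0.05). Their p-values measure the spread between pools. The procedure was tested on simulated data before use.

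Library depth was read from the steps between low RPKM values: of the 150 lowest genes per library, 96.7 to 99.3% came out whole within 0.02 of a read. Samples were grouped by assay and timepoint as the labels give them. The members, gene lists and rules were chosen with earlier results of these data known. Genes were named by rule: the 12 of each direction with the smallest standard error among those shifted by at least 1 h in both replicates, the 3 largest shifts of each direction, those nearest to the limit, the study's examples, and shifted genes of 5 gene lists. The remaining members are named too, except 1 shifted gene that is counted but not reported here, and the timepoints quoted were picked after the values were seen. Alternatives covered the pseudocount, the limits on RPKM, fold and R2, scaling, a 12-h term, a replicate block, single replicates and single pools.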

Additional observations from a re-analysis of the deposited data

How the results depend on the processing

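The number of shifted genes depended most on the limits and on the curve. It was 21 (14 advanced, 7 delayed) with a pseudocount of 1, and also 21 (14 and 7) with an R2 of at least 0.5. It was 4 (4 and 0) with a fold of at least 2, and 189 (91 and 98) with 12-h terms in the curve, of which 18 were among the 41. With a minimum of 2 RPKM 17 genes were advanced. Quantile normalisation gave 39 genes and a fit without logarithm 41, each sharing 31 with the main list. From replicate 1 or replicate 2 alone there were 112 and 112 shifted genes, 73 and 73 advanced and 39 and 39 delayed. With these 12 pools the TE rhythm was called in 0 and 0 of the 41 genes and the 12-h RPF component in 0 and 0. Without the ZT4 replicate 2 pool the 12-h RNA component was called in 1 of the 41 genes, against 0 with all pools. With all pools 0.598% of all genes tested were called. The genes that met the rule in both replicates numbered 7 with a minimum of 2 RPKM, 5 with an R2 of at least 0.5 and 1 with a fold of at least 2, in either order of choosing, against 12. With 12-h terms 5 shifts changed sign: Arhgef19 0.04 h, Ydjc -0.01 h, Ppcdc -0.75 h, Dleu7 -1.01 h and, across antiphase, Tpt1 11.7 h. The cause was not tested. No gene met the rule under every alternative that could be fitted. Pi4k2a and Hlf missed it only at a fold of 2 and Eln only with 12-h terms. The fit without the ZT4 replicate 1 pool was added after seeing the data.

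With a replicate block there were 42 shifted genes (28 advanced and 14 delayed), including all 41. The TE rhythm was then called in 28 of the 41, against 27 in the main fit, where 17.1% of all genes were called. The rule used the same contrast, so nothing is read from this count. Replicate numbers did not pair timepoints: replicate differences of 66 pairs of timepoints correlated across genes between -0.181 and 0.48 in RNA-seq (median 0.00697) and between -0.204 and 0.185 in RPF-seq (median 0.0386). Whether counting error in genes under 50 reads per library limits the precision of the shift was not tested.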

Other observations

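Ribosomal protein genes, whose mRNAs carry the same kind of terminal oligopyrimidine tract as Tpt1, were looked at after the values of Tpt1 had been seen. Of 79 tested, 0 were rhythmic at both levels and so 0 were shifted. Their fitted fold had a median of 1.36 in RPF (1.06 to 2.70) and of 1.14 in RNA, with 6 genes past the fold and R2 limits in RPF and 2 in RNA. Their TE peaked between ZT12 and ZT24 in 75 of 79 genes (94.9%), against 47.9% of all genes tested, and between ZT14 and ZT20 in 56 (70.9%), against 27.5%. Tpt1 TE peaked at ZT16.7, and both windows were chosen with this known. The TE rhythm was called in 15 of the 79 (limma, FDR under 0.05), against 17.1% of all genes tested. Fitted TE folds of the 79 had a median of 1.30 (1.01 to 3.69), against a median of 1.19 in all genes tested and 2.81 in Tpt1.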
